A study of Mus musculus with 6 samples.

Results

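Mitochondrial ribosomal protein genes were read as all array rows with a single gene symbol that starts with Mrpl or Mrps and a number, keeping for each gene the row with the highest mean signal. This gave 77 of the 19937 genes tested, 48 named for the large subunit (Mrpl) and 29 for the small subunit (Mrps). Mrpl53 shares its row with Ccdc142 and was left out. RNA came from mouse embryonic stem (ES) cells cloned from 46C cells, which carry a GFP reporter knocked into Sox1 and are male and of 129P2/OlaHsd background. The 3 control samples carried a control vector and the 3 FLAG-CTCFL samples a vector for FLAG-tagged mouse CTCFL, a paralog of the insulator protein CTCF that is normally made in male germ cells. Both groups had the same Sox1-GFP knock-in, serum medium (10%) and puromycin selection (1 µg/ml). The labels call the cells stably transfected and do not say whether a group's samples are 1 line or several, and the tests therefore measure the spread between these samples, which may be technical. Total RNA was hybridised to 1-colour Affymetrix Mouse Gene 1.0 ST arrays, and all values are log2 signals as deposited or differences between them, FLAG-CTCFL minus control vector.

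The mitochondrial ribosome makes the few proteins encoded by mitochondrial DNA, all of them subunits of the respiratory chain and ATP synthase. Its RNA comes from mitochondrial DNA, whereas every one of its proteins is encoded in the nucleus, made in the cytosol and imported. Many of these proteins have a counterpart in the bacterial ribosome, and others are found in mitochondria alone. The large subunit joins amino acids and holds the exit tunnel for the new peptide, and the small subunit binds the mRNA and decodes it.

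Ctcfl, the gene the FLAG-CTCFL vector carries, read 7.70, 7.85 and 7.89 (log2 signal) in the controls against 11.33, 11.22 and 11.25, a 10.9-fold difference in the direction of the labels. All 7 ES cell markers on a short list (Pou5f1, Sox2, Zfp42, Tdgf1, Dppa5a, Utf1 and Lin28a) lay above a background level of 7.63 (the 95th percentile over 1194 genes for olfactory or vomeronasal receptors). Of these markers 3 were lower (Dppa5a, Tdgf1 and Sox2, by -0.38 to -0.21) and none higher past the threshold. Their mean log2 signal per array was 12.38 to 12.43 in control and 12.17 to 12.30 in FLAG-CTCFL arrays. For markers of cells that an ES culture could also hold, the mean log2 signal per array was 7.83 to 7.87 in control and 7.82 to 7.92 in FLAG-CTCFL arrays for fibroblasts, 7.75 to 7.80 and 7.79 to 7.85 for endoderm, 7.82 to 7.87 and 7.94 to 8.02 for trophoblast, and 8.21 to 8.32 and 8.42 to 8.47 for neural cells. The fibroblast genes Postn, Lum and Dcn and the endoderm genes Sox17, Afp and Ttr and the trophoblast gene Elf5 were within the background range, and the part of such cells in the results was not tested. Past the threshold were Gata3 (0.33) and Cdx2 (0.30) of the trophoblast list, Nes (0.68) and Pax6 (0.32) of the neural list, Gata6 (0.14) of the endoderm list and Col1a1 (0.16) of the fibroblast list, all higher, and the fibroblast gene Thy1 (-0.48), which was lower. The other measured genes of these lists did not pass. In the neural list these were Sox1 (0.03), Neurog2 (0.007) and Tubb3 (-0.13). The calls of Gata6 and Col1a1 were lost when control replicate 1, control replicate 2 or FLAG-CTCFL replicate 3 was left out, among other alternatives (adjusted p up to 0.194 and 0.127). In bulk RNA, fewer cells that express a gene and less RNA per cell cannot be told apart. Pearson's r over all genes was 0.983 to 0.985 between the groups and at least 0.997 within them, and the array SDs of 1.41 to 1.47 were smallest in FLAG-CTCFL replicate 2.

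Most of the mitochondrial ribosomal protein genes that changed were higher in FLAG-CTCFL cells, by small amounts. Of the 77 genes 25 were higher and 7 lower (limma, adjusted p below 0.05, two-sided, n = 3 per group), and 45 did not pass. Thus 32.5% of the members were higher and 9.09% lower, against 12.5% and 18.4% of all genes tested. In either direction 41.6% of the members and 30.9% of all genes passed. Among genes at or above the median signal, 8.24 on the log2 scale, where all 77 members lie, the shares were 18.6% higher and 30.8% lower. In either direction 49.3% of these genes passed, more than the 41.6% of the members. The median log2 fold change was 0.087 over the members (interquartile range -0.032 to 0.16), 0.0037 over all genes and -0.024 over the genes at or above the median signal. The largest rise was 1.42-fold, and only 2 members, both lower, passed a change of 1.5-fold. None of the 77 was within the background range, with mean log2 signals of 8.26 to 11.95.

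**Figure D1:**
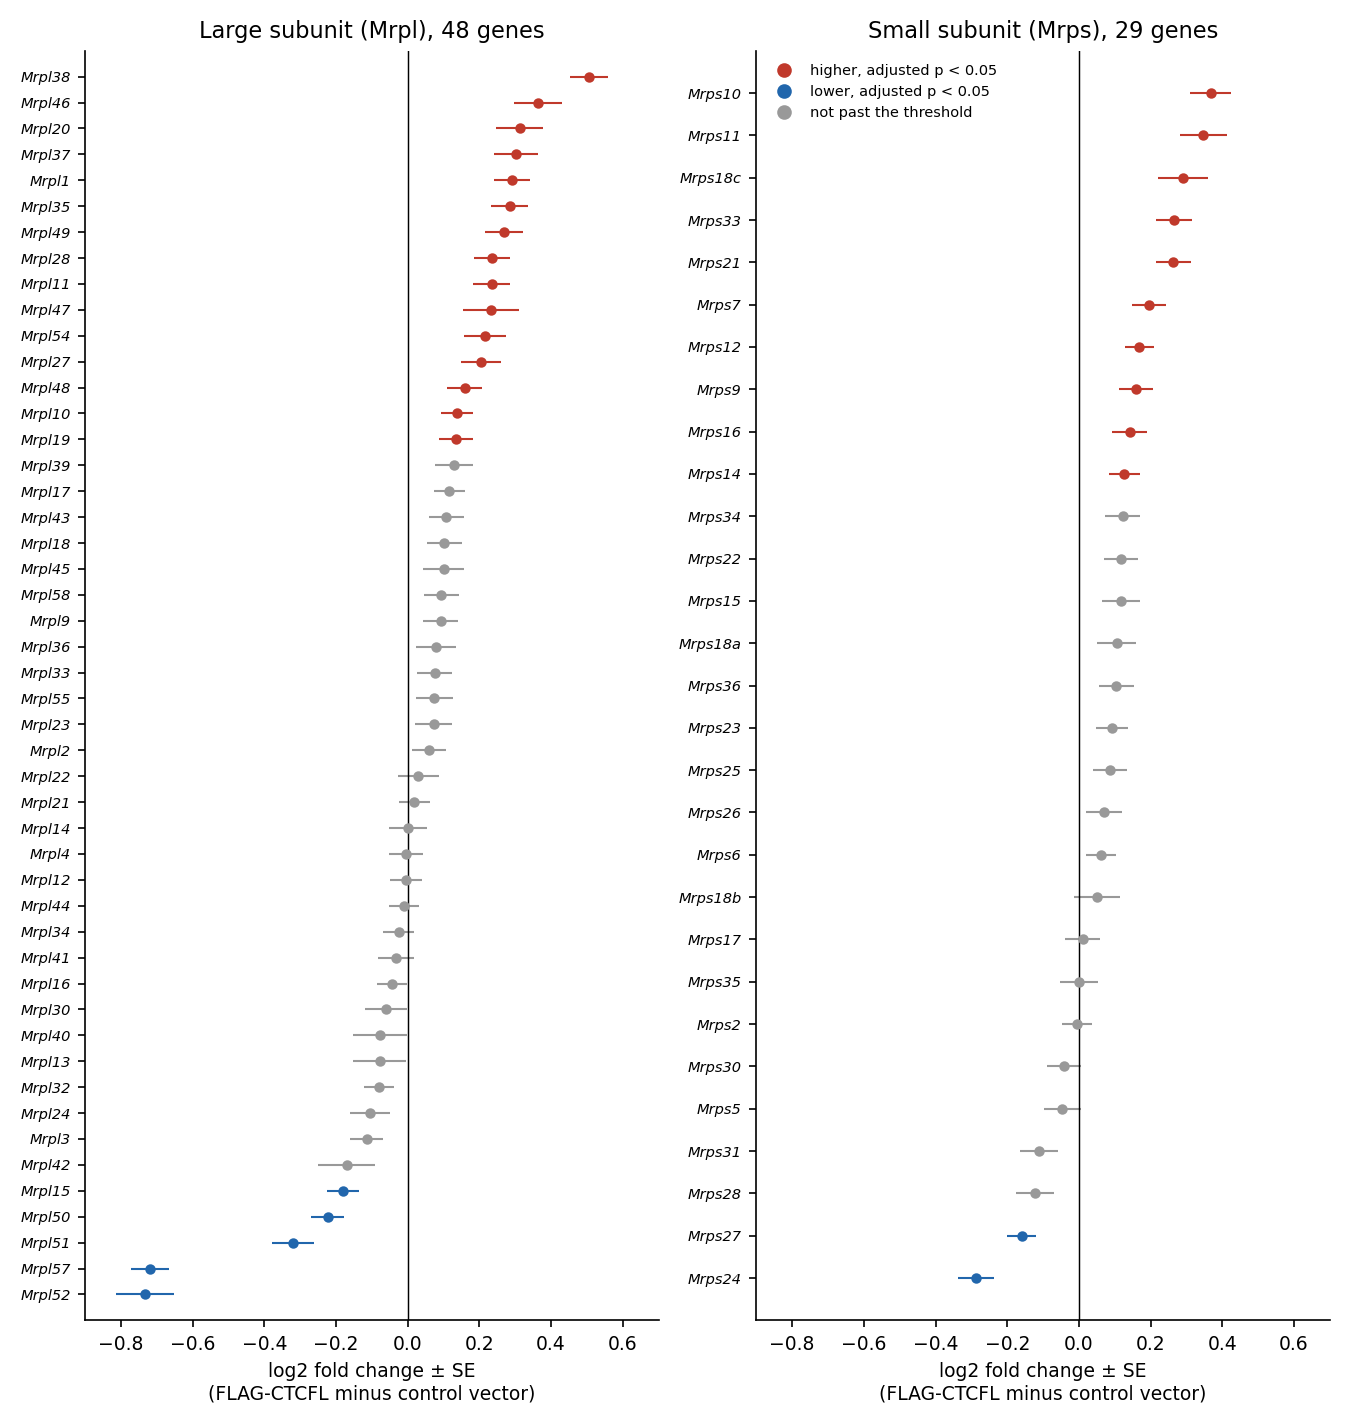
Log2 fold change (horizontal axis, FLAG-CTCFL minus control vector, bars are the moderated SE, n = 3 arrays per group) of the 48 large subunit and 29 small subunit genes, ranked within each subunit. Red points passed the test as higher (15 large, 10 small), blue points as lower (5 and 2) and grey points did not pass; Mrpl52 and Mrpl57 lie apart at -0.73 and -0.72.

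The subunits differed little in these counts, and the difference was not tested. Of the 48 large subunit genes 15 were higher and 5 lower (median 0.075), and of the 29 small subunit genes 10 were higher and 2 lower (median 0.10). Structures of the mammalian ribosome place the products of Mrps18a and Mrps30 in the large subunit; counting them there changed none of these values, as neither passed (0.11 and -0.04). The mean log2 signal of large minus small subunit genes was 0.33, 0.30 and 0.31 in controls against 0.29, 0.26 and 0.27 with FLAG-CTCFL, lower in all 3 of the latter. Without members on chromosomes 6, 14 and X the same difference was 0.21, 0.19 and 0.21 against 0.21, 0.19 and 0.21, so the groups then overlapped.

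**Figure D2:**
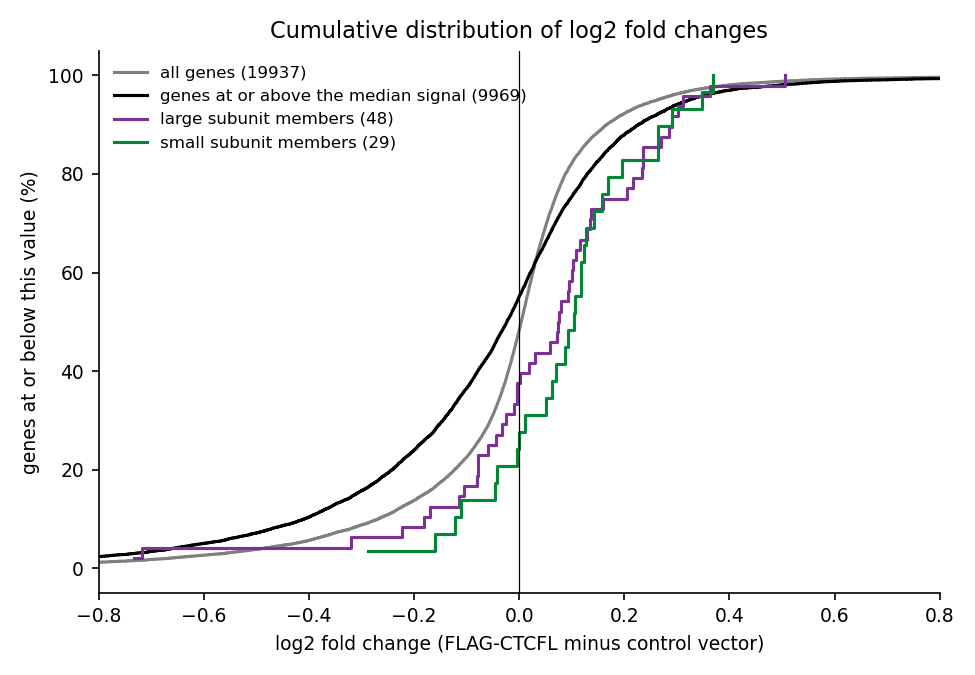
Cumulative share of genes (vertical axis, percent) at or below each log2 fold change (horizontal axis) for all 19937 genes, the 9969 genes at or above the median signal, and the large and small subunit genes. Both subunit curves lie to the right of the curve of all genes over most of the range, with medians of 0.075 and 0.10 against 0.0037.

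The members also varied together among arrays of the same group. Control replicate 1 lay above the control mean for 69 of the 77 genes, control replicate 2 for 36 and control replicate 3 for 13. The median deviation of the members from their own control means was 0.049, -0.0042 and -0.037 in control replicates 1 to 3. In FLAG-CTCFL replicates 1 to 3 it was 0.11, 0.038 and 0.094, with 58, 47 and 55 genes above the control mean. FLAG-CTCFL replicate 2 therefore lay below control replicate 1 in this median, and the groups overlapped. Over genes at or above the median signal the same deviation was 0.0042, 0.0077 and -0.012 in the controls and 0.0050, -0.067 and -0.021 in the FLAG-CTCFL arrays.

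The arrays of the groups did not overlap for 57.1% of the members, against 41.3% of all genes. Among genes at or above the median signal, where all members lie, the share was 59.5%, so the members show no excess over these. All 3 FLAG-CTCFL arrays lay above all 3 controls for 33 members and below them for 11. Over all 19937 genes the counts were 3658 above and 4584 below. Over the 9969 genes at or above the median signal they were 2352 and 3580. For 24 of the 25 higher members the arrays did not overlap, and Mrpl47 was the exception.

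Mrpl38 rose most. Its protein belongs to the central protuberance, a part of the large subunit beside the tRNA sites, and has no bacterial counterpart. It read 10.10, 10.08 and 10.05 in controls against 10.70, 10.52 and 10.52 with FLAG-CTCFL. The groups lay well apart, and the rise was 0.50 ± 0.05 (SE, n = 3 per group; limma adjusted p = 7.63e-06).

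Of the other members assigned here to the central protuberance, Mrpl46 read 9.02, 8.78 and 8.93 in controls and 9.33, 9.15 and 9.34 in FLAG-CTCFL arrays. It rose by 0.36 ± 0.07 (limma adjusted p = 0.000826). Mrpl48 rose by 0.16, Mrpl58, whose protein is a peptidyl-tRNA hydrolase that became part of the ribosome, differed by 0.09 without passing (adjusted p = 0.182), and Mrpl40 by -0.08 (adjusted p = 0.523). So 3 of the 5 genes assigned to this part were higher and none lower, against 12.5% and 18.4% of all genes. The 5 are a selection, and other proteins of this part were not counted.

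Among large subunit genes with a bacterial counterpart, Mrpl20, which codes for an RNA-binding protein of early subunit assembly, read 10.18, 10.11 and 9.95 in controls and 10.41, 10.28 and 10.49 in FLAG-CTCFL arrays (rise 0.31 ± 0.06). Mrpl1, for the protein of the stalk through which the used tRNA leaves, read 9.66, 9.54 and 9.48 against 9.88, 9.82 and 9.84 (0.29 ± 0.05). Mrpl35 read 10.75, 10.70 and 10.59 against 11.02, 10.90 and 10.97 (0.29 ± 0.05). In all 3 the lowest FLAG-CTCFL array was above the highest control array, by the least in Mrpl20. Of the proteins of the stalk that recruits translation factors, Mrpl11 (0.23) and Mrpl10 (0.14) rose. Mrpl12, whose protein forms the tip of that stalk and is also known to bind the mitochondrial RNA polymerase, read 10.52 in both group means (difference -0.0050, adjusted p = 0.957).

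Of 6 members assigned here to the peptide exit tunnel 1 was higher and none lower, against 12.5% and 18.4% of all genes. That gene was Mrpl47 (0.23 ± 0.08, adjusted p = 0.0379), with 8.92, 8.78 and 8.77 in the controls and 9.19, 8.84 and 9.14 in the FLAG-CTCFL arrays, so FLAG-CTCFL replicate 2 fell among the controls. The tunnel genes Mrpl22, Mrpl23 and Mrpl24 differed by 0.03, 0.07 and -0.11, and Mrpl17 (0.12) and Mrpl45 (0.10), the gene of a membrane-facing protein, did not pass either. The parts of the ribosome used here were chosen after the values were seen, and each holds selected members, not every protein of the part.

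Among proteins found in mitochondria alone, Mrpl37 read 10.74, 10.64 and 10.67 in controls and 11.12, 10.86 and 10.98 in FLAG-CTCFL arrays (rise 0.30 ± 0.06, limma adjusted p = 0.00182). Mrpl49 read 10.69, 10.68 and 10.63 against 11.01, 10.83 and 10.97 (0.27 ± 0.05). In both, FLAG-CTCFL replicate 2 was the lowest of its group and still above every control. Members of this origin moved both ways: of 29 genes 7 were higher and 5 lower, against 18 and 2 of the 48 with a bacterial counterpart. In the small subunit the counts were 1 higher and 1 lower of 11 and 9 and 1 of 18, and in the large subunit 6 and 4 of 18 and 9 and 1 of 30. These differences in count were not tested.

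In the small subunit Mrps10 rose most. It codes for a protein of the head, the part that swivels as mRNA and tRNAs move along. Controls read 10.17, 10.04 and 9.93 and FLAG-CTCFL arrays 10.39, 10.38 and 10.47, which puts the rise at 0.37 ± 0.06 (SE, n = 3; limma adjusted p = 0.000230). Other head genes with a bacterial counterpart, Mrps7 (0.20), Mrps9 (0.16) and Mrps14 (0.13), rose as well. Mrps24, also of the head, was the exception and fell: it read 10.37, 10.30 and 10.18 against 9.97, 9.99 and 10.02, a log2 fold change of -0.29 ± 0.05 (limma adjusted p = 0.000599).

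Of 9 genes with a bacterial counterpart assigned to the body and platform of the small subunit, 5 were higher and none lower. The shares of all genes were 12.5% and 18.4%. The 11 small subunit members found in mitochondria alone were assigned to no part. Of them 1 was higher (Mrps33, 0.26) and 1 lower (Mrps27, -0.16). Mrps11, of the platform where the mRNA leaves, read 9.31, 9.13 and 9.07 in the controls and 9.57, 9.40 and 9.59 in the FLAG-CTCFL arrays (rise 0.35 ± 0.07). Mrps18c, 1 of 3 Mrps18 paralogs, read 10.21, 10.07 and 9.91 against 10.45, 10.26 and 10.36 (0.29 ± 0.07), while Mrps18a (0.11) and Mrps18b (0.05) did not pass. For Mrps18c control replicate 1 came close to the lowest FLAG-CTCFL array. Mrps12, for the protein of the decoding centre, read 8.83, 8.85 and 8.82 against 8.996, 9.02 and 8.99 (0.17 ± 0.04), with an SD of 0.016 in each group. Mrps21 (0.26) and Mrps16 (0.14) also rose.

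**Figure D3:**
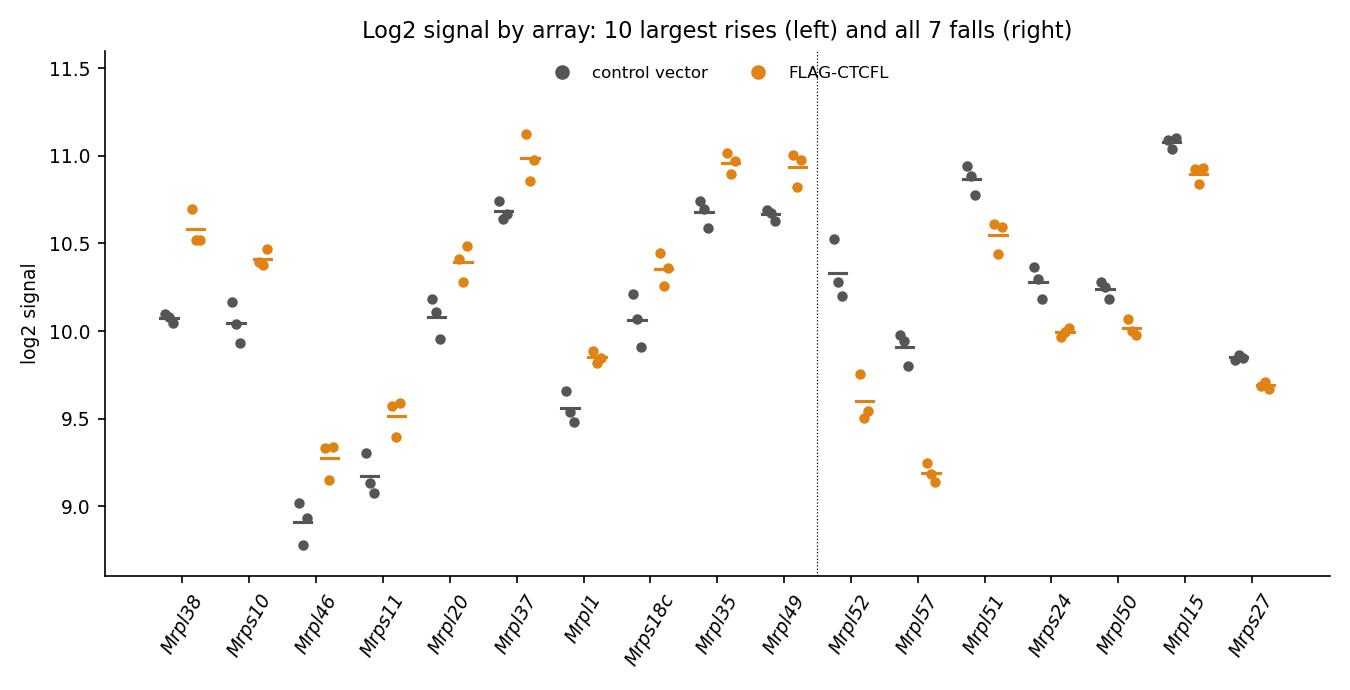
Log2 signal (vertical axis) of the 10 members with the largest rises and of all 7 members that fell, 1 point per array (grey control vector, orange FLAG-CTCFL, 3 each) and a bar for each group mean. In all 17 genes the points of the groups do not overlap; Mrpl38 has the widest gap among the rises and Mrpl57 and Mrpl52 among the falls.

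The other 15 rises lay between 0.13 and 0.27, and 9 of them were lost when 1 array was left out. These were Mrpl10, Mrpl19, Mrpl27, Mrpl47, Mrpl48, Mrpl54, Mrps9, Mrps14 and Mrps16. All 9 were lost without FLAG-CTCFL replicate 3 (limma adjusted p = 0.0564 to 0.158), 8 without control replicate 2 (0.0605 to 0.222), 7 without control replicate 3 (0.0875 to 0.172), 5 without FLAG-CTCFL replicate 1 (0.0685 to 0.122) and Mrps14 without control replicate 1 (0.0937). The same 9 were lost after subtraction of array medians (0.0578 to 0.168). The other 16 rises, among them the 10 largest, were past the threshold under every alternative tried. Without FLAG-CTCFL replicate 3 the count of higher members was 16, and without FLAG-CTCFL replicate 2 it was 33. For large subunit genes the count of 15 became 9 without control replicate 2 or FLAG-CTCFL replicate 3. The 45 members that did not pass had log2 fold changes of -0.17 to 0.13, and for 13 of them the arrays did not overlap. The share without overlap among all genes that did not pass was not determined.

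**Figure D4:**
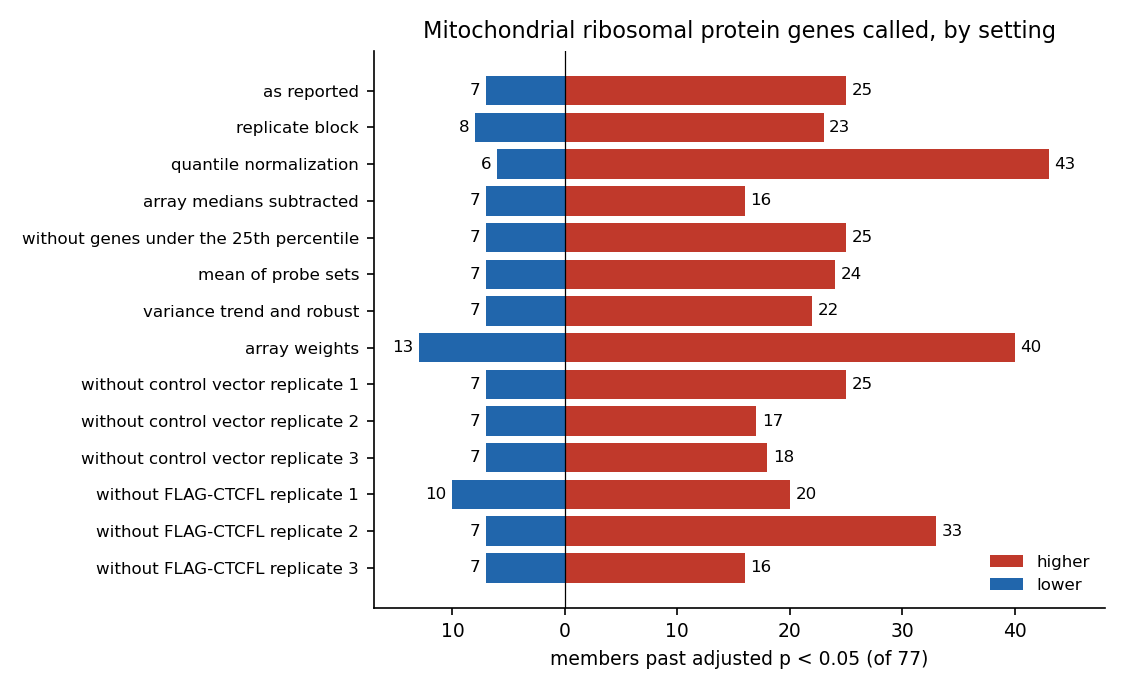
Number of the 77 members past an adjusted p of 0.05 (horizontal axis; red higher, to the right, blue lower, to the left) as reported and under each alternative. The higher count ranges from 16 to 43 and exceeds the lower count, 6 to 13, in every setting shown.

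Probe sets limit some of these calls. For 8 members a second row carried the same symbol, and the gene table lists pseudogenes of Mrpl23, Mrpl27, Mrpl48 and Mrps36, whose RNA the probes may not tell from the gene's own. For Mrps33 the row used read 9.59 in controls and rose (0.26), while its other row, at 7.53, was in the background range and did not (0.03). For Mrpl27 the other row differed by 0.10 (adjusted p = 0.174 over all rows), for Mrpl47 by 0.04 and for Mrpl51 by -0.14 (adjusted p = 0.131). No member had rows past the threshold in opposite directions. Without these 9 members of uncertain rows 21 genes were higher and 6 lower.

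The largest falls were in a pair of genes on chromosome 14. Mrpl52 read 10.52, 10.28 and 10.20 in controls against 9.76, 9.51 and 9.54 with FLAG-CTCFL, a log2 fold change of -0.73 ± 0.08 (SE, n = 3 per group; limma adjusted p = 1.20e-05). Mrpl57 read 9.98, 9.94 and 9.80 against 9.25, 9.18 and 9.14 (-0.72 ± 0.05, limma adjusted p = 2.85e-07). Both code for large subunit proteins without a bacterial counterpart, and in both the gap between the groups was wider than the range within either. Mrps16, the third member on that chromosome, was higher (0.14). Of all 699 measured genes on chromosome 14, 44 were higher and 260 lower, with a median of -0.048.

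Genes next to Mrpl52 and Mrpl57 were lower too. Among the 5 measured genes on either side in chromosomal order, 7 of 10 were lower and none higher for each. The share of lower genes was 37.2% on chromosome 14 and 18.4% over all genes. For the other 75 members at most 6 of the neighbours were lower. This was the count around Mrpl47, which itself was higher. Beside Mrpl52 lie Oxa1l (-1.04), whose product inserts newly made mitochondrial proteins into the inner membrane, Prmt5 (-0.75), an arginine methyltransferase, and Abhd4 (-0.73). Beside Mrpl57 lie Zdhhc20 (-1.02), Xpo4 (-0.91) and Ska3 (-0.69). The median log2 fold change of the 10 neighbours was -0.48 for Mrpl52 and -0.24 for Mrpl57, and for the other 75 members it lay between -0.18 and 0.16. For the 25 higher members these neighbour medians ran from -0.17 to 0.084, with a median of 0.026. Neighbours of Mrpl38 had a median of 0.027 and those of Mrps16 one of -0.017.

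**Figure D5:**
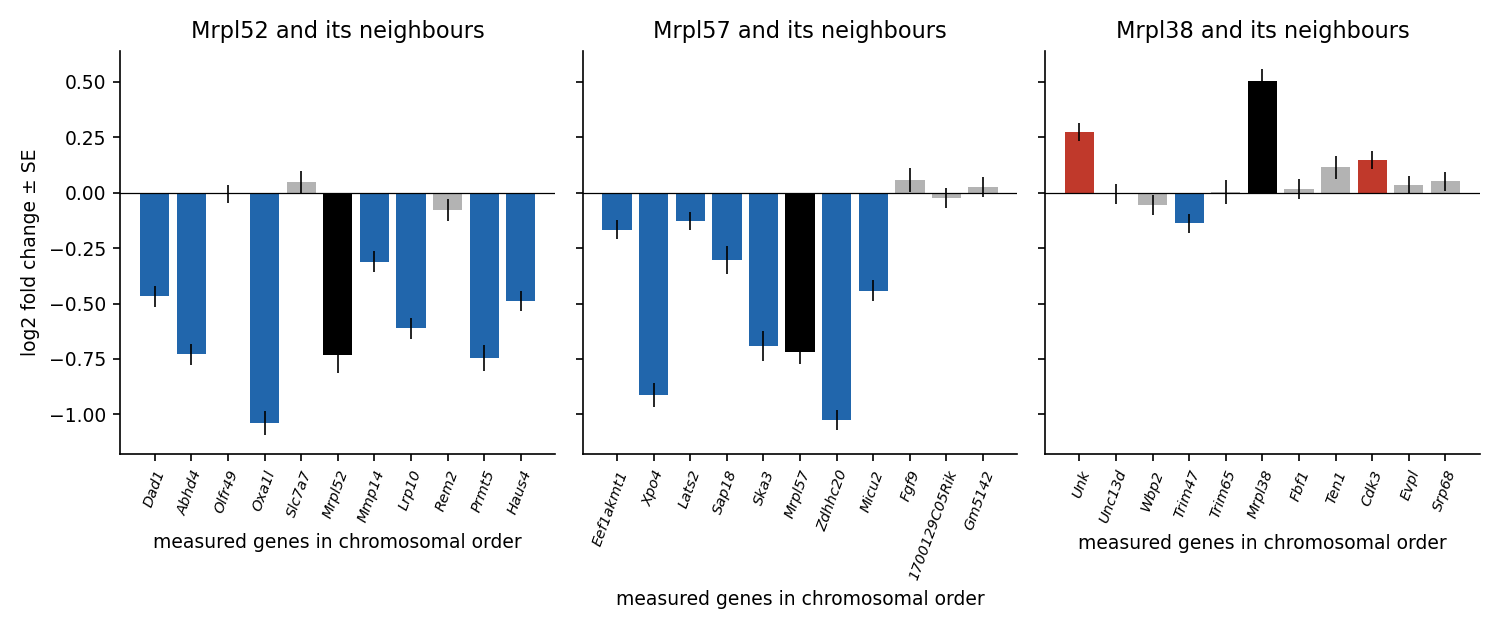
Log2 fold change with its SE (vertical axis, n = 3 arrays per group) of Mrpl52, Mrpl57 and Mrpl38 (black) and the 5 measured genes on each side in chromosomal order (blue lower, red higher, grey not past the threshold). Around Mrpl52 and Mrpl57 7 of 10 neighbours were lower, against 37.2% of all genes on chromosome 14. Around Mrpl38 2 were higher and 1 lower.

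The other 5 falls were smaller. Mrpl51, listed on chromosome 6, read 10.94, 10.89 and 10.78 in controls and 10.61, 10.44 and 10.60 in FLAG-CTCFL arrays (-0.32 ± 0.06). After it and Mrps24 came Mrpl50 (-0.22 ± 0.05), with 10.28, 10.25 and 10.19 against 10.07, 9.999 and 9.98, and Mrpl15 (-0.18 ± 0.04). Mrps27, whose protein has pentatricopeptide repeats as RNA-binding proteins do, read 9.83, 9.87 and 9.85 against 9.69, 9.71 and 9.67 (-0.16 ± 0.04, limma adjusted p = 0.00859), but did not pass once the arrays were quantile normalized (-0.095, adjusted p = 0.115). In none of these genes did the groups overlap. On chromosomes 6, 14 and X 28.8% of all genes were lower, against 16.9% on other chromosomes. The 9 members there were 6 on chromosome 6 and 3 on chromosome 14. Without them 21 of 68 members were higher and 4 lower (median 0.086).

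Some mitochondrial ribosomal protein genes share a start region with a gene that runs the other way. The RefSeq promoter table (GRCm38.p6) held 68 of the 77 members. Of these, 22 had a start at most 500 bases from that of a measured gene on the opposite strand, in 21 pairs. The genes of a pair run away from each other, and their starts overlap by at most 100 bases. The share of all genes with such a partner was not determined. Of the 20 partners that are not members themselves 5 passed the test (25%), 3 higher and 2 lower, a share not above the 30.9% of all genes. In 4 pairs both genes passed, each time in the same direction. Mrps11 and Mrpl46 are such a pair, with 42 bases between their starts, and rose by 0.35 and 0.36. Mrps12 (0.17) rose with Sars2 (0.67 ± 0.06, adjusted p = 1.41e-06), the mitochondrial seryl-tRNA synthetase, Mrpl37 (0.30) with Cyb5rl (0.13), and Mrpl57 (-0.72) fell with Ska3 (-0.69), a gene of the kinetochore.

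In 7 pairs the member passed and its partner did not. Mrpl49 rose by 0.27 while Fau, a ribosomal fusion protein gene, differed by -0.08 (adjusted p = 0.183), and Mrps7 rose by 0.20 while Gga3 differed by -0.06. Mrpl27 (Eme1, 0.16), Mrpl50 (Zfp189, -0.14), Mrps27 (Ptcd2, -0.15), Mrpl47 (Ndufb5, -0.02) and Mrpl48 (Rab6a, -0.03) were the others. In 2 pairs only the partner passed, Twnk (0.12), the mitochondrial DNA helicase, beside Mrpl43 (0.11), and Zfp661 (-0.23) beside Mrps5 (-0.05), and in 8 neither did. The calls of Cyb5rl and Twnk were lost in 7 of 13 alternatives each, with adjusted p up to 0.154 and 0.161.

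The start regions of Mrps11 (which overlaps that of Mrpl46), Mrps12 and Mrpl37 are shown as those of the 3 pairs that rose together, and those of Mrpl57 and Mrpl52 as those of the largest falls. Each runs from 250 bases before the annotated start to 50 after it, 5′ to 3′ on the gene's strand, and capitals mark matches to 4 short motifs described next.
Mrps11, GRCm38.p6 chr7:78782881-78783180, plus strand: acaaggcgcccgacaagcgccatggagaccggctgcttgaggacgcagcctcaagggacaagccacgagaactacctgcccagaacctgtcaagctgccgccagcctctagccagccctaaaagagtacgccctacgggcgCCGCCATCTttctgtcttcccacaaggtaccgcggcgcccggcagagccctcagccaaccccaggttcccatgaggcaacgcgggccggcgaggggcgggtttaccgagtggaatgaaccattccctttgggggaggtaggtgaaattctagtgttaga
Mrps12, GRCm38.p6 chr7:28741772-28742071, minus strand: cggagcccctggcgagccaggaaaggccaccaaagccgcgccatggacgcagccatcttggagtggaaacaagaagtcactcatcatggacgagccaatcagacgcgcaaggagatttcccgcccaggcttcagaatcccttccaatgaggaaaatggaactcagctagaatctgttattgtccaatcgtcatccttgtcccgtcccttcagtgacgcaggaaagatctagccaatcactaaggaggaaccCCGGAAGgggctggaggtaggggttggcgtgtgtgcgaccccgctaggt
Mrpl37, GRCm38.p6 chr4:107066817-107067116, minus strand: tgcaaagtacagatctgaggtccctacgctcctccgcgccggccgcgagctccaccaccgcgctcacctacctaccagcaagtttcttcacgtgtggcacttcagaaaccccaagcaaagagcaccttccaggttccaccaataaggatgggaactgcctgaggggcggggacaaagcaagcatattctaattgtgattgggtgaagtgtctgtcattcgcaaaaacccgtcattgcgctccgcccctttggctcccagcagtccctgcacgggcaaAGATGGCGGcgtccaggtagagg
Mrpl57, GRCm38.p6 chr14:57825989-57826288, plus strand: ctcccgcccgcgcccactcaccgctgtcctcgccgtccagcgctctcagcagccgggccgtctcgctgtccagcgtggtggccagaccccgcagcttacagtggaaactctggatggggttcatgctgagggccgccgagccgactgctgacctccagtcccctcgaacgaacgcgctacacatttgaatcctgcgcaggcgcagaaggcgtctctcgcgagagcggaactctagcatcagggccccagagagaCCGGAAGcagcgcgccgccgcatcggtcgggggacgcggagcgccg
Mrpl52, GRCm38.p6 chr14:54426659-54426958, plus strand: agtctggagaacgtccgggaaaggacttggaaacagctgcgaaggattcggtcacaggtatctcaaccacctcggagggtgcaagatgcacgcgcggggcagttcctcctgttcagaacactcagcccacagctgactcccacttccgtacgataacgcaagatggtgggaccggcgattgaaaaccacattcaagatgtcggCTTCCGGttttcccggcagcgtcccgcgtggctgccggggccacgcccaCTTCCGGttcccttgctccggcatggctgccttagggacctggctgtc

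The motifs were GCGCATGCG, part of the site of NRF1, a factor known for driving nuclear genes of mitochondria, CCGGAAG, the core bound by ETS factors such as GABPA, AGATGGCGG, part of the YY1 site, and AGGGGGC, a part of the CTCF core that CTCFL also binds. Both strands were searched, and each motif was counted on its own where motifs overlapped. Mrps11 and Mrpl37 held the YY1 letters, Mrps12 and Mrpl57 the ETS core and Mrpl52 the ETS core at 2 places. The window of Mrpl46, not shown, held none of these motifs. In the first listed window of each gene, the ETS core was found in 24 of 68 members (35.3%), in 19.8% of array genes at or above the median signal and in 9.12% of all 27025 genes of the table. NRF1 letters were in 7 members (10.3%, against 4.29% and 1.81%), YY1 letters in 5 (7.35%, against 2.77% and 1.11%) and the CTCF part in 3 (4.41%, against 17.8% and 10.5%). Among the 22 higher members with a window, 6 held the ETS core, 1 the NRF1, 3 the YY1 and none the CTCF letters, while of the 6 lower members 4 held the ETS core, 1 (Mrps27) the YY1 and none the NRF1 or CTCF letters. Of the 40 members that did not pass 14 held the ETS core, 6 the NRF1, 1 the YY1 and 3 the CTCF letters. A match is no evidence of binding, and none of these shares was tested.

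Nuclear regulators of mitochondrial genes moved in both directions or did not pass. Nrf1 itself differed by -0.01 (9.67, 9.72 and 9.59 in controls and 9.70, 9.60 and 9.64 in FLAG-CTCFL arrays) and Gabpa by -0.17 (adjusted p = 0.0656), neither passing. Of 12 nuclear regulators 3 were higher (25%, against 12.5% of all genes), the GABP beta subunits Gabpb2 (0.20) and Gabpb1 (0.15) and Yy1 (0.16), and 1 lower (8.33%, against 18.4%), Mycn (-0.22). All 3 higher calls were lost after subtraction of array medians and without FLAG-CTCFL replicate 3 or control replicate 1, where the count was 0.

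The other lists of mitochondrial protein synthesis are small, and their counts are read against the 12.5% higher and 18.4% lower of all genes. Among genes at or above the median signal, where most of the listed genes lie, the shares were 18.6% and 30.8%. Of 4 mitoribosomal proteins under other names 2 were lower and none higher, Gadd45gip1 (-0.25) and Chchd1 (-0.20, a call lost without control replicate 1, at adjusted p = 0.0781), with a median of -0.13. Dap3 and Ptcd3 did not pass. Of 15 translation factors 4 were higher and 4 lower (26.7% each, median 0.078). Lrpprc, which keeps mitochondrial mRNAs stable, read 10.89, 10.99 and 10.88 in controls and 11.37, 11.23 and 11.28 in FLAG-CTCFL arrays (0.37 ± 0.05), and the initiation factor Mtif3 rose by 0.25. Oxa1l, on chromosome 14, had a log2 fold change of -1.04 ± 0.06 (means 11.55 and 10.52), and the release factor Mtrf1 (-0.49), on the same chromosome, the initiation factor Mtif2 (-0.23) and Guf1 (-0.31) fell too. The remaining rises, Gfm1 and Slirp (0.18 each), were lost without control replicate 3 or FLAG-CTCFL replicate 3, where 2 factors were higher.

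Of 19 mitochondrial aminoacyl-tRNA synthetase genes, which charge the tRNAs, 2 were higher (10.5%) and 4 lower (21.1%, median -0.031). These shares were close to those of all genes and below those of genes at or above the median signal (18.6% and 30.8%). Sars2 (0.67) and Qrsl1 (0.31) rose, and Iars2 (-0.43), Rars2 (-0.22), Cars2 (-0.22) and Vars2 (-0.20) fell. Of 26 genes of ribosome assembly and rRNA modification 2 were higher (7.69%) and 4 lower (15.4%, median 0.0034), both below the shares of all genes, with the rRNA methyltransferase Mrm1 higher (0.36) and Mettl15 (-0.40) and Mettl17 (-0.34, chromosome 14) lower. The other rise, Ybey (0.15), was lost without control replicate 2, control replicate 3 or FLAG-CTCFL replicate 1, while 4 genes of that list were higher and 2 lower without FLAG-CTCFL replicate 2, and 2 were lower without FLAG-CTCFL replicate 3. Of 15 genes of mitochondrial transcription and RNA processing 1 was higher (6.67%) and 6 lower (40%, median -0.044). Hsd17b10, a subunit of the enzyme that cuts the 5′ ends of mitochondrial tRNAs and X-linked (-0.54), the elongation factor Tefm (-0.38), Pnpt1 (-0.36) and Grsf1 (-0.36) fell. Elac2, the enzyme of tRNA 3′ ends, was the gene that rose (0.18), and its call was lost without any 1 array other than FLAG-CTCFL replicate 2. Polrmt, the mitochondrial RNA polymerase (-0.04), and Tfam (0.01) did not pass.

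Beside the 32.5% higher and 9.09% lower of the mitochondrial ribosomal protein genes, 5.08% of 59 cytosolic ribosomal protein genes were higher and 6.78% lower (median 0.020); among them the paralogs Rpl39l (0.54) and Rpl10l (-0.41) moved most. Of 74 subunits of the respiratory chain and ATP synthase, some of which work with the proteins this ribosome makes, 24.3% were higher and 8.11% lower (median 0.0077). Uqcr11 (0.29), Atp5g1 (0.26) and Atp5k (0.23) rose, and Cox7b (-0.33), Ndufv3 (-0.27) and Sdha (-0.24) fell. The count of 18 higher subunits became 8 or 6 when control replicate 2 or 3 was left out, and 9 when FLAG-CTCFL replicate 3 was. Differences between these families were not tested.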

How the data were processed

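Gene expression was measured on 6 arrays, 3 per group, from 200 ng of total RNA each. The values are log2 signals per probe set as deposited by the authors; their range, 5.73 to 14.56, is that of log2 values. The labels' protocols give the labelling kit (GeneChip WT Terminal Labeling Kit); background correction, summarisation and scaling: not given in the sources used here. Of 34760 probe sets 21640 had 1 symbol in the platform annotation, 1321 several and 11799 none; the RefSeq gene table (GRCm38.p6) gave 21553 current symbols by Entrez ID and 87 were kept. The brightest probe set per gene left 19937 genes. Groups were compared over all of them with limma 3.58.1 in R 4.3.3 (lmFit, eBayes, group as the only term), at a Benjamini-Hochberg adjusted p below 0.05. The script was tested on simulated data with few changed genes and noise independent between genes, unlike the data used here. Lists were described by counts and medians, with no test. Precision is limited by the small number of arrays. Members, gene lists, rules and alternatives were chosen with earlier results of these data known. The rule for named genes took Ctcfl, the 10 largest rises and 10 largest falls among members past the threshold, members whose role is described, and list genes past the threshold (up to 4 in each direction by smallest p). Neighbours, promoter partners, the ribosome's parts, the motifs, marker genes, Rpl39l, Rpl10l, the respiratory chain genes and regulators that did not pass were named after their values were seen. The alternatives were quantile normalization, array medians subtracted, a replicate block, a filter at the 25th percentile of mean signal, probe sets averaged per gene, array weights, robust eBayes with a trend, each array left out, Mrps18a and Mrps30 moved to the large subunit, and members on chromosomes 6, 14 and X left out; leaving out members of uncertain probe sets was added after the data were seen. Plots: matplotlib 3.10.9 in Python 3.11.15.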

Additional observations from a re-analysis of the deposited data

How the results depend on the processing

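Higher members outnumbered lower ones under every alternative tried, and the 10 largest rises and 6 of the 7 falls stayed past the threshold in each, Mrps27 being the exception. After quantile normalization 43 members were higher (26 large and 17 small), with 1 small subunit gene lower, and the medians were 0.14 over all members, 0.13 for large and 0.16 for small subunit genes. In the lists quantile normalization gave 8 higher cytosolic ribosomal, 4 higher transcription, and 5 higher and 2 lower assembly genes. After subtraction of array medians 16 members were higher (9 large), and the lists had 8 respiratory chain, 2 translation, 1 assembly, 0 transcription and 0 regulator genes higher. Array weights, which gave FLAG-CTCFL replicate 3 a weight of 5.77 and the others at most 1.24, called 4195 of all genes higher, 40 members higher (24 large, 16 small) and 13 lower (9 large, 4 small); in the lists 13 cytosolic ribosomal, 4 synthetase, 3 transcription, 7 translation and 4 assembly genes were then higher, and 7 synthetase, 2 regulator and 13 respiratory chain genes lower. Without members on chromosomes 6, 14 and X 4 were lower. The cause of these shifts was not tested, beyond the smaller number of genes in the last.

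With 1 array left out, higher counts ran from 16 to 33 for all members and from 9 to 19 for large subunit genes. Among the lists they ran from 2 to 6 for cytosolic ribosomal, 0 to 3 for transcription, 2 to 4 for translation, 1 to 4 for assembly, 0 to 4 for regulator and 6 to 17 for respiratory chain genes. Lower counts ran from 1 to 2 for mitoribosomal proteins under other names, 2 to 5 for assembly and 1 to 2 for regulator genes. The replicate block gave 23 higher and 8 lower members. Deviations of arrays with the same number correlated at 0.13, -0.20 and -0.021. Nothing in the labels pairs these arrays, and with 3 per group the correlations cannot settle whether they were handled together. Under the block Mrpl19 and Mrps14 were not past the threshold (limma adjusted p = 0.055 and 0.0608). In the rows used every member lay above the background level of 7.63, while the other row of Mrps33 lay below it.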
